A study of Mus musculus with 6 samples.

Results

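The cells described here were 6047 fibroblasts of the mouse mitral valve that were chosen by their UMI counts of Smoc2, Lpl and Col15a1. Single cells had been taken from the valves of K/B.g7 mice, which carry a transgenic T cell receptor and develop autoantibodies, arthritis and inflammation of the mitral valve, and of B.g7 mice, the control. As background, both genotypes carry the MHC class II molecule of the NOD strain, and the receptor transgene is what K/B.g7 adds. Valves were sampled at 3, 8 and 25 weeks of age, and each genotype and age gave 1 library, so there were 6 libraries and 3 per genotype. How many mice a library holds, their sex and whether valves were pooled are not stated, and the labels call the K/B.g7 valves inflamed at all 3 ages. The valves were digested with collagenase 2, and dead cells were sorted out before capture. A UMI is a molecular barcode that marks 1 captured RNA molecule. Of 58351 barcodes, 53526 passed a floor of 300 detected genes and a ceiling of 10% mitochondrial UMIs. The fibroblast gate held 34660 of these barcodes, taken as cells, with at least 1% of their UMIs from Dcn, Col1a1 and Col1a2 and none from the leukocyte gene Ptprc or the endothelial gene Pecam1. A member was a gate cell with at least 4 UMIs of Smoc2, Lpl and Col15a1 together and at least 2 of these genes detected. Upper limits kept out the cells rich in genes of other valve fibroblasts: Pi16 had to be under 3 UMIs, Wif1 at most 1, Chad at 0, Cilp, Thbs4 and Col8a1 together under 4, Mmp3 and Lcn2 together under 5, and Igfbp3 under 5. Where 3 values follow each other, here and below, they are for 3, 8 and 25 weeks: K/B.g7 gave 587, 1118 and 2705 members, and B.g7 598, 298 and 741.

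As background, valve fibroblasts, also called interstitial cells, make and turn over the layered matrix of the leaflets. Smoc2 is a secreted calcium-binding matrix protein of the Sparc family, Lpl is lipoprotein lipase, which releases fatty acids from circulating triglycerides, and Col15a1 is a collagen of the basement membrane zone. Fibroblasts rich in Col15a1 and basement membrane genes are known from many organs as parenchymal fibroblasts that lie near capillaries, and those rich in Pi16 as adventitial fibroblasts. Abca8a, a lipid transporter of the ABC family, was listed as a marker of these cells and was not used to choose them.

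The shallowest library, B.g7 of 3 weeks, had 15196750 UMIs and the deepest, K/B.g7 of 25 weeks, 69152541, and the members of a library summed to between 1324495 and 7346216 UMIs. The median member had 4015, 3564.5 and 2593 UMIs in K/B.g7 and 3103, 4373 and 4890 UMIs in B.g7. Members of the B.g7 library of 8 weeks stood apart in sex: 94.0% had Xist without a Y-linked UMI, against 20.6% to 58.4% in the other libraries, and the fits were repeated over such cells. A Y-linked UMI without Xist was found in 1.34% of the members of B.g7 at 8 weeks, against 22.5% to 34.1% in the other libraries. Between 6 and 73 barcodes were shared by any pair of libraries, and 1 member barcode occurred in more than 1 library. Levels below are in CPM: the UMIs of a gene per 1000000 UMIs summed over a library's members. Each genotype and age is 1 library, so p-values compare libraries, and the spread between mice is not known.

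All 3 selecting genes were detected in most members of every library but 1: in 64.4%, 61.2% and 64.3% of members in K/B.g7 and 67.2%, 47.3% and 64.0% in B.g7, the low value being that of 8 weeks. Lpl (chr8:68880491-68907448, positions of GENCODE M21 on mm10) was at 955, 1021 and 1448 CPM in K/B.g7 and 1525, 949.8 and 973 CPM in B.g7. Smoc2 (chr17:14279506-14404790) was at 723, 860.2 and 862 CPM in K/B.g7 and 853, 564 and 740.4 CPM in B.g7, and Col15a1 (chr4:47208161-47313167) at 1061, 593 and 1012 CPM in K/B.g7 and 1279.7, 590.4 and 786 CPM in B.g7. These levels were set in part by the rule and carry no test. The median member had 8 UMIs of the 3 genes, and the highest 59. Cells just inside the threshold, with exactly 4 UMIs, numbered 47 to 370 per library and had 319 to 983 CPM of Abca8a. Those just outside, with 3 UMIs and every other condition met, numbered 54 to 370 and had 327 to 866 CPM.

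The 3 genes were not particular to the members. Without the upper limits, 52.5%, 55.6% and 52.2% of the gate cells of K/B.g7 and 57.0%, 36.5% and 56.5% of those of B.g7 met the Smoc2, Lpl and Col15a1 condition. The 28613 gate cells that were not members were the reference in what follows. In the gate, 15364 cells had 3 or more UMIs of Pi16 and 5102 had 2 or more of Wif1. As the rule separated members from the others on the same counts, the ratios below, computed with 0.5 UMI added to each count, describe the members and have no test.

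Abca8a (chr11:110025634-110095978) was at 525, 797 and 1139 CPM in K/B.g7 and 625, 570.0 and 704 CPM in B.g7 in members, and at 229, 452 and 623 CPM in K/B.g7 and 286, 396 and 402 CPM in B.g7 in the other cells of the gate. Members were the higher in 6 of 6 libraries, by 1.44 to 2.29 times. Against the gate cells with at least 3 UMIs of Pi16 the ratio was 1.29 to 1.91, and against those with at least 2 UMIs of Wif1 it was 4.07 to 9.43. Other lipid genes also lay higher. Apoe, the apolipoprotein E gene, had 1.2 to 1.6 times the level of the other cells, the relatives Abca6, Abca8b and Abca9 had 1.64 to 2.01, 1.2 to 1.61 and 1.28 to 1.9 times, and Plin2, a lipid droplet coat gene, had 1.04 to 1.43 times. Of 18 lipid handling genes at 20 CPM or more in members or other cells, 8 were higher in members in 6 of 6 libraries and 0 were lower in all, with a median ratio of 1.30. Over all 5978 genes at that level, 14.1% were higher in 6 of 6 libraries, 14.7% were lower, and the median ratio was 1.0. Of 8 adipocyte markers, Adipoq, Lep, Cidec, Retn and Adrb3 had 0 UMIs in the members of all 6 libraries. Plin1, Cidea and Plin4 did not, and each library had a UMI of at least 1 of them. The 8 summed to 1.04 to 4.54 CPM in members and to 4.74 to 22.2 CPM over all kept cells, low in both. Among 9 adipogenic regulators at level, 5 were higher in 6 of 6 libraries and 0 lower: the transcription factors Cebpa, Cebpd, Klf9 and Ebf2 and the growth factor receptor gene Pdgfra.

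Basement membrane genes had the highest share above the other cells among the pathway lists. Of its 16 genes at 20 CPM or more, 10 were higher in 6 of 6 libraries and 2 lower, with a median ratio of 1.46. Col4a1, a chain of the network collagen IV, was at 660.4, 439 and 745 CPM in K/B.g7 and 893, 255 and 460.2 CPM in B.g7, which was 1.79 to 2.0 times the other cells. Lamb1, the laminin β1 chain, was at 312, 336 and 515 CPM in K/B.g7 and 411, 173 and 296 CPM in B.g7 (1.82 to 2.47 times). Col4a2, Col4a4, Lama2, Lama4, Lamc1, Nid1, Nid2 and Hspg2 were also higher in every library, by at most 2.05 times. Col4a6 and Lamb2 were lower in every library. Against the gate cells with at least 3 UMIs of Pi16, the ratios were smaller. They were 1.21 to 1.63 for Col4a1, 1.13 to 2.02 for Lamb1 and 1.03 to 1.68 for Col4a2. Against those with at least 2 UMIs of Wif1, they were 5.02 to 9.23, 9.04 to 18.2 and 4.07 to 5.69. Of 9 complement genes, 4 were higher in 6 of 6 libraries (C1ra, C1s1, C3 and Serping1) and 3 lower, among them the membrane regulators Cd55 and Cd59a. Sparc did not differ in 1 direction, with 0.83 to 1.07 times the level of the other cells.

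Among the 24 genes whose lowest ratio over the 6 libraries was highest, Ccl11, Apod and Cxcl14 reached the largest ratios, and those of Ccl11 and Apod varied most between libraries. Cxcl14, a chemokine of resident tissue cells, was at 134, 1568 and 743 CPM in K/B.g7 and 89.3, 269 and 469.6 CPM in B.g7, 2.63 to 6.78 times the other cells. Ccl11, or eotaxin, was at 414, 445 and 169 CPM in K/B.g7 and 164, 117 and 207 CPM in B.g7 (2.71 to 21.2 times), and Apod, a lipocalin that carries lipids, at 499, 218 and 145 CPM in K/B.g7 and 311, 322 and 139 CPM in B.g7 (2.06 to 17.6 times). The highest ratio of each came from K/B.g7 at 3 weeks, where the other cells held 19.8 CPM of Cxcl14, 19.5 CPM of Ccl11 and 28.4 CPM of Apod. Of 16 chemokine and cytokine genes at level, 7 were higher in 6 of 6 libraries and 0 lower, among them Cxcl12, Cxcl16 and Ccl7. Hsd11b1, which activates glucocorticoids in tissue, was at 25.6, 361 and 198 CPM in K/B.g7 and 19.3, 90.6 and 108 CPM in B.g7 (2.45 to 4.17 times). G0s2, an inhibitor of adipose triglyceride lipase, and Dpep1, a dipeptidase, were at 1.92 to 3.02 and 1.97 to 2.78 times. The rest of the 24 genes, beside the basement membrane and Abca6 values above, were Msc, Steap4, Ms4a4d, Ggt5, Thsd7a, Ifitm1, Ndufa4l2, Col5a3, Slfn5, Ifi207, S1pr3, Ifi204, Svep1 and Ifi205, with ratios between 1.64 and 5.70. Of these, Ifi204, Ifi205 and Ifi207 belong to the interferon-inducible Ifi200 family.

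Genes of tendon, cartilage and the Wif1 cells lay on the low side. Comp, a cartilage matrix protein, was at 81.7, 45.1 and 106 CPM in K/B.g7 and 65.3, 44.5 and 172 CPM in B.g7 in members, and at 1055, 512 and 803 CPM in K/B.g7 and 487, 346 and 757 CPM in B.g7 in the other cells. Prg4 (lubricin) had 0.0442 to 0.12 times, Scx (scleraxis, a tendon regulator) 0.0618 to 0.126 times and Fmod (fibromodulin) 0.0614 to 0.14 times the level of the other cells. Cilp2, Npy, Clu, Ltbp2, Lmcd1, Crispld1, Dkk3 and Aqp1 completed the 12 lowest, none above 0.317 times in any library. Of 10 cartilage and bone genes at level, 8 were lower in 6 of 6 libraries, and of 12 Pi16 adventitial genes, 10 were lower and 0 higher, with a median ratio of 0.651. Cilp and Chad, which the rule limits, are expressed with several of these genes in valve and tendon, so part of this pattern was set by the choice of cells. By the rule, the 28613 other cells also held all 15364 gate cells with 3 or more UMIs of Pi16. They held all 5102 with 2 or more of Wif1 too. The low levels of Pi16 adventitial genes and of genes of the Wif1 cells were thus set in part by these limits.

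**Figure D1:**
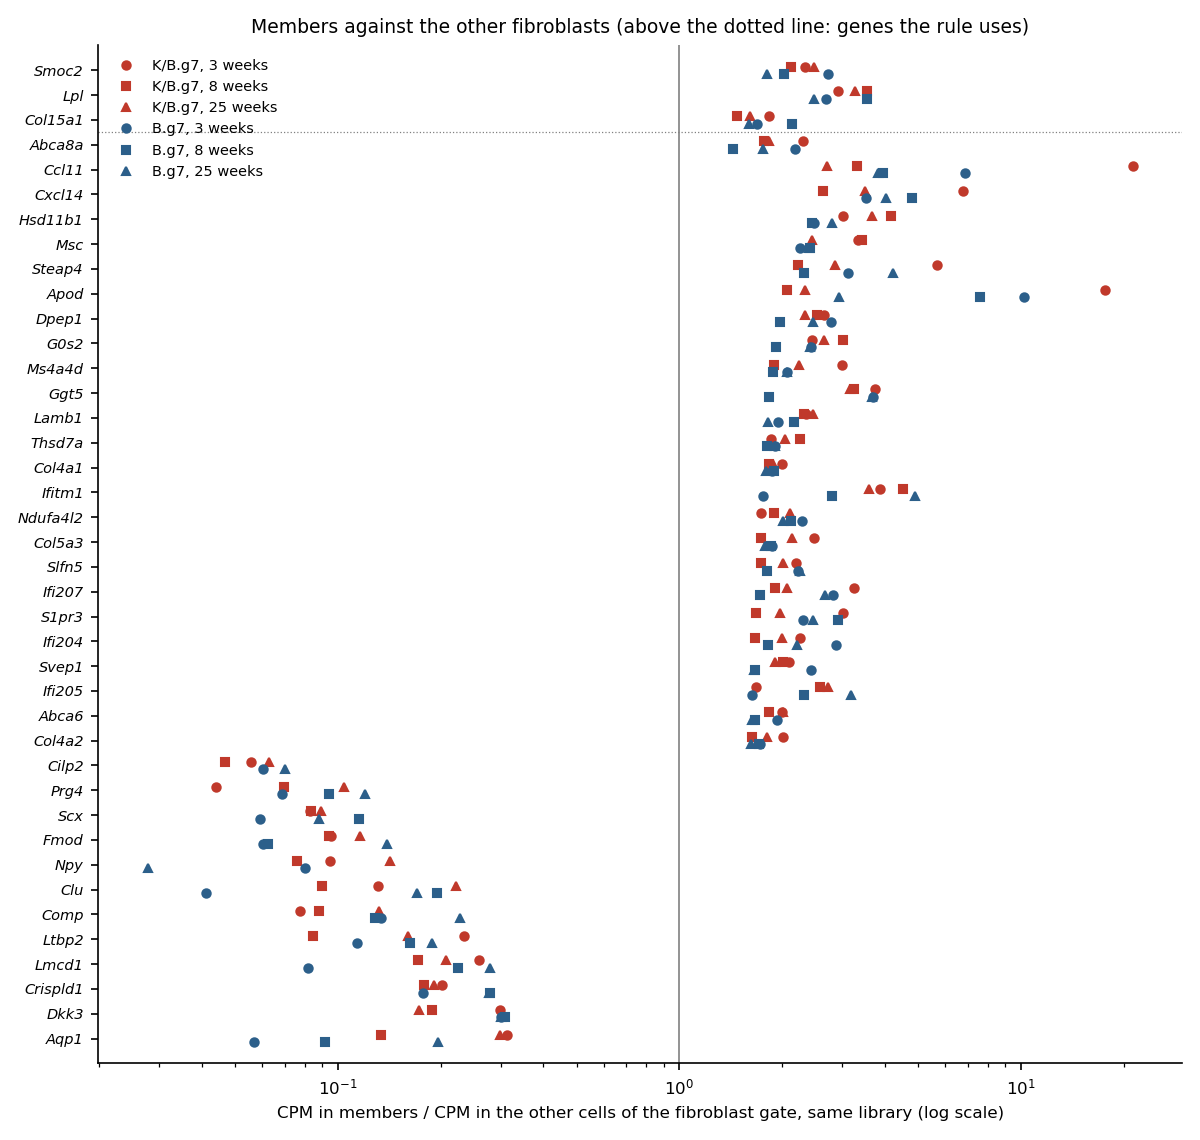
Ratio of CPM in members to CPM in the other cells of the fibroblast gate, on a log axis, for each of the 6 libraries. The genes above the dotted line were used by the rule, Abca8a and the 24 genes below it were above 1 in every library, and the last 12 were below 1 in every library. Npy in B.g7 at 8 weeks, at 0 CPM in members, is not drawn.

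The members were uneven among themselves in the genes of largest ratio. The 1% of members with the most UMIs of a gene held 54.4%, 33.2% and 44.1% of the Apod UMIs in K/B.g7 and 65.4%, 54.0% and 48.5% in B.g7. For Abca8a the same share was 4.08% to 5.18%, and for Col4a1 it was 5.16% to 7.56%. Cxcl14 lay between, at 10.7% to 36.0%, with the lowest value in K/B.g7 at 8 weeks, where the gene was most abundant. Members without a Smoc2 UMI were low in Apod, at 82.9, 187 and 76.0 CPM in K/B.g7 and 37.7, 27.1 and 48.1 CPM in B.g7. Those with all 3 genes detected had 712, 186 and 128 CPM in K/B.g7 and 229, 365 and 186 CPM in B.g7. The order held in every library but that of K/B.g7 at 8 weeks, where the values were 187 and 186 CPM.

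RNA of other cell types was detected in the members, for most marker lists at a lower level than over all kept cells of the library. Summed over 10 macrophage markers, members had 5.22 to 44.0 CPM, against 136 to 1155 CPM over all kept cells of the same library. The 10 endothelial markers summed to 120.0 to 197 CPM, with Pecam1 at 0 by the rule and Cdh5 at 0 in 3 of 6 libraries. The 9 mural markers (pericyte and smooth muscle genes) summed to 838, 188 and 547 CPM in K/B.g7 and 181, 134 and 199 CPM in B.g7, and Acta2 and Tagln made up most of it in every library but that of B.g7 at 8 weeks. The 7 mesothelial markers summed to 3.3, 12.8 and 36.2 CPM in K/B.g7 and 1.57, 18.1 and 96.3 CPM in B.g7. Hemoglobin genes and Alas2 reached 2183 CPM in K/B.g7 at 8 weeks and 11.3 to 851 CPM in the other libraries. In 3 cases members had more than all kept cells of their library: red cell genes in B.g7 at 25 weeks (851 and 537 CPM), T cell markers in K/B.g7 at 3 weeks (51.6 and 47.2 CPM) and cardiomyocyte markers in B.g7 at 25 weeks (40.5 and 39.7 CPM).

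The share of members in the fibroblast gate did not separate the genotypes. It was 15.2% (14.1 to 16.4), 19.4% (18.4 to 20.4) and 19.98% (19.3 to 20.7) in K/B.g7 and 21.7% (20.1 to 23.2), 10.2% (9.17 to 11.4) and 12.7% (11.9 to 13.6) in B.g7, with exact 95% binomial intervals that cover counting error only. The K/B.g7 library was the lower at 3 weeks and the higher at 8 and 25 weeks, so the groups overlapped. The means were 18.2% ± 2.61 (SD, n = 3) and 14.9% ± 6.0 (SD, n = 3), a difference of 3.31 percentage points with a 2-sided exact permutation p = 0.4, where 0.1 is the smallest that 3 against 3 can give. With each cell thinned to 2000 UMIs and shallower cells left out (5.04% to 17.0% of the gate per library), the shares were 15.5%, 19.04% and 21.1% in K/B.g7 and 23.98%, 10.5% and 15.6% in B.g7. The difference was then 1.88 points (exact permutation p = 0.7). Without 3, 8 or 25 weeks the difference was 8.19, 0.390 and 1.33 points, so it rested on which ages were included.

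**Figure D2:**
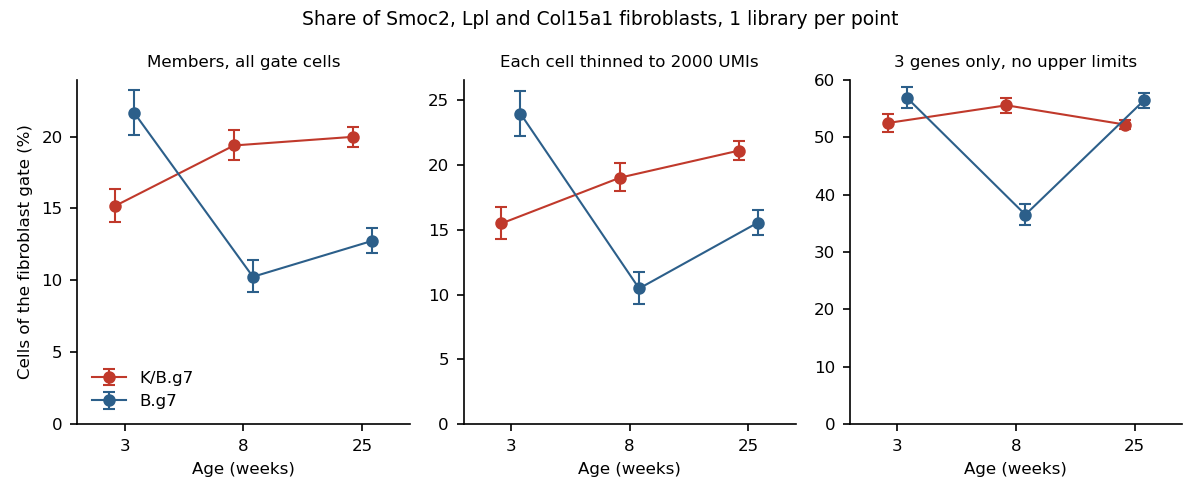
Percentage of fibroblast-gate cells that met the rule, by age and genotype, with exact 95% binomial intervals (left), after thinning every cell to 2000 UMIs (middle), and with only the Smoc2, Lpl and Col15a1 condition (right). The K/B.g7 point lies below that of B.g7 at 3 weeks and above it at 8 and 25 weeks in the left panel. In the right panel the B.g7 library of 8 weeks is the low one, at 36.5%.

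K/B.g7 was compared with B.g7 in the members to ask which of their genes follow the inflamed genotype. Contractile genes were higher in K/B.g7 members: Tagln, Acta2 and Myh11, which encode transgelin, smooth muscle actin and smooth muscle myosin heavy chain. Gstp1, a glutathione transferase, Jag1, a Notch ligand, and Ccl21a, a CCR7 ligand known from lymphatic endothelium, were the other calls. In all, 6 of 10722 genes tested were higher (0.056%) and 0 lower (0%) at an edgeR adjusted p under 0.05, with age as a block and 2 residual degrees of freedom. Unadjusted, 677 genes had p under 0.05, 412 higher and 265 lower, and DESeq2 called 9 higher and 0 lower. Leaving out the libraries of 3, 8 or 25 weeks gave 223, 25 and 2 calls, so the number rested on which ages were included, and without 3 weeks 78 genes were higher and 145 lower. Without 25 weeks Tagln and Gstp1 alone passed.

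Tagln (chr9:45929619-45936058) was at 355, 52.8 and 187 CPM in K/B.g7 and 64.2, 14.3 and 51.2 CPM in B.g7. Each K/B.g7 library was above the B.g7 library of its age, and the groups overlapped across ages, with 8 weeks low in both (log2 fold change 2.04 ± 0.23 SE, edgeR adjusted p = 0.0045). Acta2 (chr19:34241090-34255590) was at 385, 44.7 and 203 CPM in K/B.g7 and 64.2, 21.9 and 61.2 CPM in B.g7 and followed the same order (log2 fold change 1.8 ± 0.28 SE, edgeR adjusted p = 0.042). Myh11 (chr16:14194535-14291372) was at 22.7, 6.65 and 56.5 CPM in K/B.g7 and 7.31, 1.51 and 4.59 CPM in B.g7, with 55, 28 and 415 UMIs against 14, 2 and 17, and overlapped only through its library of 8 weeks (log2 fold change 2.69 ± 0.36 SE, edgeR adjusted p = 0.016). Mylk, the kinase of the myosin light chain, was at 25.2, 7.6 and 27.1 CPM in K/B.g7 and 12.5, 4.53 and 14 CPM in B.g7 and did not pass (log2 fold change 0.88 ± 0.24 SE, edgeR adjusted p = 0.49). Of 8 contractile genes tested, 2 (Tagln and Acta2, with Myh11 in the mural list) rose and 0 fell, all 8 had a log2 fold change above 0, and the median log2 change was 0.73, against -0.001 over all genes.

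The contractile UMIs were unevenly spread over the members. Tagln was detected in 19.6%, 8.05% and 27.3% of members in K/B.g7 and 9.03%, 4.36% and 13.2% in B.g7. The 1% of members highest in Tagln held 63.2%, 59.9% and 32.4% of its UMIs in K/B.g7 and 50.4%, 47.4% and 31.6% in B.g7. Without the 1% of members highest in Tagln, Acta2 and Myh11 together, Tagln was at 144, 22.2 and 130.1 CPM in K/B.g7 and 37.6, 8.39 and 41.9 CPM in B.g7, and remained higher at each age. In that fit, run after the data were seen, Tagln passed (log2 fold change 1.66, edgeR adjusted p = 0.017), and Acta2 (1.7, edgeR adjusted p = 0.072) and Myh11, Jag1 and Ccl21a (2.43, 1.33 and 2.3, each at edgeR adjusted p = 0.052) did not. A UMI of Rgs5, Kcnj8, Abcc9, Cspg4, Notch3 or Higd1b, which mark pericytes, was found in 20.8%, 14.1% and 16.6% of members in K/B.g7 and 9.87%, 30.2% and 23.2% in B.g7. Such members were the more frequent in K/B.g7 at 3 weeks and in B.g7 at 8 and 25 weeks. The median member was also deeper there, at 4015 against 3103, 4373 against 3564.5 and 4890 against 2593 UMIs. What depth adds to these percentages was not tested. Without the members that had such a UMI, the log2 fold change of Tagln was 1.73 (edgeR adjusted p = 0.032) and that of Acta2 1.63 (edgeR adjusted p = 0.14). Of the 7 mural markers tested, Tagln, Acta2 and Myh11 were called, 5 had a log2 fold change above 0, and the median was 1.28. The 4 pericyte markers among them did not pass and went both ways. Rgs5 was at 4.54, 24.9 and 28.5 CPM in K/B.g7 and 5.22, 8.31 and 8.09 CPM in B.g7 (log2 fold change 1.28 ± 0.32 SE, edgeR adjusted p = 0.37), and Notch3 was lower in K/B.g7 at each age, at 9.49, 11.9 and 21.5 CPM in K/B.g7 and 13.6, 38.5 and 23.7 CPM in B.g7 (log2 fold change -0.82 ± 0.29 SE, edgeR adjusted p = 0.72). Abcc9 and Kcnj8 had log2 fold changes of 0.28 ± 0.27 and -0.07 ± 0.32 SE (edgeR adjusted p = 0.93 and 0.995). Mural cells and contractile fibroblasts share these genes, and beyond these fits the part of mural RNA in the difference was not tested.

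Gstp1 (chr19:4035407-4037985) was at 105, 250.4 and 210.4 CPM in K/B.g7 and 30.3, 68 and 67.7 CPM in B.g7, and every K/B.g7 library was above every B.g7 library (log2 fold change 1.7 ± 0.20 SE, edgeR adjusted p = 0.0045). The 1% of members richest in Gstp1 held 6.69% to 18.97% of its UMIs. In the other cells of the gate Gstp1 was at 103, 202 and 178 CPM in K/B.g7 and 33.9, 73.4 and 67.4 CPM in B.g7. The neighbouring copy Gstp2 was at 2.89, 26.6 and 16.2 CPM in K/B.g7 and 1.04, 5.29 and 4.05 CPM in B.g7 and did not pass (log2 fold change 1.96 ± 0.34 SE, edgeR adjusted p = 0.063). Gstp2 was named after its values were seen. Reads of these near-identical genes can be assigned to either or dropped, so how the pair divides is uncertain. Jag1 (chr2:137081456-137116644) was at 49.9, 64.6 and 98.3 CPM in K/B.g7 and 23, 21.1 and 35.6 CPM in B.g7 in members, with no overlap between genotypes (log2 fold change 1.34 ± 0.20 SE, edgeR adjusted p = 0.037). The other cells of the gate had no overlap in Jag1 either, at 43.7, 54.5 and 82.4 CPM in K/B.g7 and 26.2, 34.8 and 36.0 CPM in B.g7. Ccl21a (gene ENSMUSG00000094686, chr4:42772860-42773993) was low, at 12.4, 26.4 and 31.9 CPM in K/B.g7 and 4.18, 0.755 and 7.28 CPM in B.g7, or 30, 111 and 234 UMIs against 8, 1 and 27 (log2 fold change 2.3 ± 0.36 SE, edgeR adjusted p = 0.042). It belongs to a family of near-identical copies, and its assignment is uncertain for that reason. The files hold a second gene ID of this symbol, at 0 UMIs in members. The lymphatic markers Prox1, Lyve1, Flt4, Mmrn1 and Reln summed to 6.6, 8.32 and 13.2 CPM in K/B.g7 and 3.13, 7.55 and 11.9 CPM in B.g7, and at each age the genotypes lay closer together in this sum than in Ccl21a. Lyve1, the one of them tested, had a log2 fold change of -0.17 ± 0.57 SE (edgeR adjusted p = 0.99). Whether lymphatic RNA has a part in the difference of Ccl21a was not tested beyond these values. No overlap between the genotypes, with K/B.g7 above, was also seen for 5.7% of all genes tested, and with K/B.g7 below for 2.24%.

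**Figure D3:**
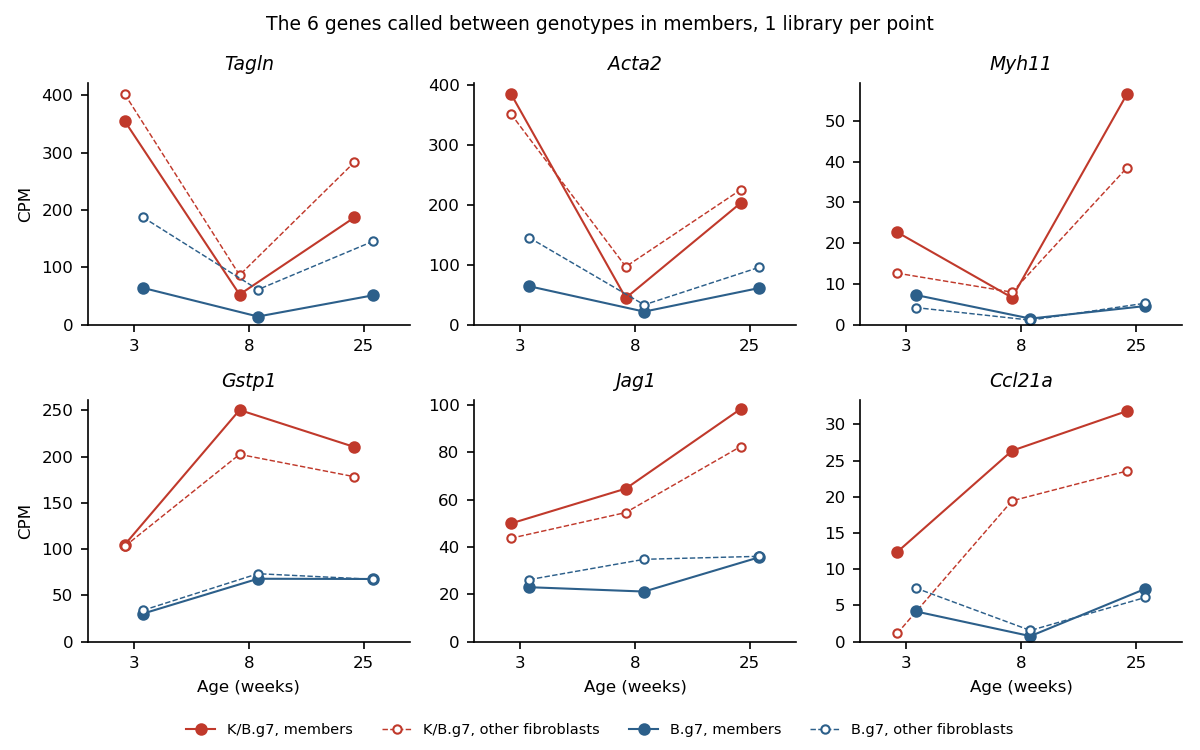
CPM of the 6 genes called between genotypes, in members (filled points) and in the other cells of the fibroblast gate (open points), by age. K/B.g7 members are above B.g7 members at each age in all 6 panels. Tagln in members is below Tagln in the other cells of the same library in 6 of 6 libraries.

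Sequences before the start sites are shown for 2 of the called genes, 1 from the contractile group that rose together and Gstp1, because RefSeq promoters on GRCm38.p6 matched 4 of the 6 called genes and these 2 held the motif searched. Capitals in Acta2 mark matches to the CArG box, the motif of serum response factor, taken loosely as CC, 6 bases with at most 1 G or C, then GG, a form that reads the same on both strands. Capitals in Gstp1 mark TGAGTCA, the AP-1 motif, searched on both strands. Each line gives the 100 bases before the start, on the minus strand, from chr19:34255374-34255473 and chr19:4037913-4038012.
Acta2: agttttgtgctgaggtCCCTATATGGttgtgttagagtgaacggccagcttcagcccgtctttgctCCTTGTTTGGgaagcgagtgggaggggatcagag
Gstp1: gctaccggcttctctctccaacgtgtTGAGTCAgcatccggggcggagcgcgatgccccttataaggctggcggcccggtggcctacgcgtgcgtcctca
The 2 CArG matches of Acta2 begin 84 and 34 bases before the start, and 3.27% of 32851 promoters held at least 1 in a window of this length. The match of Gstp1 begins 74 bases before the start, and 1.88% of promoters held 1. The motifs and the window were chosen after matches were seen, so these percentages are no test of rarity. By the GENCODE positions given above, the Acta2 window lies within the gene and the Gstp1 window partly within it. The starts meant here are those of RefSeq. These are matches of letters, and no binding was measured here.

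Genes of at least 20 CPM on average that came nearest to a call, with 1 direction at all ages, were Erh, Ccdc85b, Nme2 and Grcc10. Erh, at 105, 113 and 144 CPM in K/B.g7 and 53.8, 49.8 and 51.5 CPM in B.g7, had no overlap between genotypes and did not pass (log2 fold change 1.16 ± 0.19 SE, edgeR adjusted p = 0.052). No gene was called lower. Under the same limits, the lowest p on that side belonged to Smad6, an inhibitor of BMP signalling, at 6.19, 3.09 and 6.67 CPM in K/B.g7 and 9.4, 89.8 and 16.7 CPM in B.g7 (log2 fold change -2.46 ± 0.56 SE, edgeR adjusted p = 0.31), where 1 library, B.g7 at 8 weeks, stood far above the rest. Myoc (myocilin) was at 114, 83.9 and 75.5 CPM in K/B.g7 and 146, 153 and 223 CPM in B.g7 and had no overlap (log2 fold change -1.0 ± 0.25 SE, edgeR adjusted p = 0.37). Dhrs3, a retinal reductase, and Enc1 also lay below B.g7 in every library, with adjusted p of 0.45 and 0.46 in edgeR. Tmem119, Aoc3 and Cntfr were lower at each age with overlap across ages, at log2 fold changes of -0.84, -1.08 and -0.75 and edgeR adjusted p of 0.46 to 0.52. Grcc10, Nme2 and Ccdc85b were higher at each age, the last 2 without overlap, at log2 fold changes of 1.02, 1.46 and 1.06 and edgeR adjusted p of 0.13 to 0.14.

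No pathway list but the contractile one held a call between genotypes. Basement membrane genes had 0 calls among 20 tested, with 17 above 0 and a median log2 change of 0.36, and 4 had unadjusted p under 0.05. These were Col4a5, at 196, 60.8 and 127 CPM in K/B.g7 and 133, 42.3 and 68 CPM in B.g7, and Lamc3, Col4a3 and Col18a1, at log2 fold changes of 1.21, 0.65 and 0.57, with edgeR adjusted p from 0.61 to 0.74. Lipid handling genes had 0 calls of 25 and a median of 0.01. Within this list Fabp4, a fatty acid binding protein, was at 35.5, 44.2 and 41.7 CPM in K/B.g7 and 18.8, 20.4 and 26.7 CPM in B.g7 (log2 fold change 0.8 ± 0.21 SE, edgeR adjusted p = 0.4), and it is also a gene of capillary endothelium. Apoe, at 12438, 8217 and 5694 CPM in K/B.g7 and 11839, 22822 and 13057 CPM in B.g7, did not pass (log2 fold change -0.94 ± 0.34 SE, edgeR adjusted p = 0.72), nor did its neighbour Apoc1 (log2 fold change -2.16 ± 0.46 SE, edgeR adjusted p = 0.25). Abca8a, at the values above, had a log2 fold change of 0.25 ± 0.23 SE (edgeR adjusted p = 0.92).

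The immune pathway lists were likewise without a call between genotypes, and Ccl21a, called above, is in none of them. The rule kept cells rich in Mmp3 and Lcn2 out of the members, so these results do not cover such cells. Of 20 chemokine and cytokine genes 0 passed. Cxcl14 was higher in K/B.g7 at each age and did not pass (log2 fold change 1.2 ± 0.33 SE, edgeR adjusted p = 0.47), Ccl11 was higher at 3 and 8 weeks (log2 fold change 0.93 ± 0.34 SE, edgeR adjusted p = 0.72), and Cxcl5, a neutrophil chemokine, was lower at each age, at 2.47, 17.3 and 3.68 CPM in K/B.g7 and 3.65, 56.6 and 7.82 CPM in B.g7 (log2 fold change -1.43 ± 0.30 SE, edgeR adjusted p = 0.23). In the other cells Cxcl5 was at 1.12, 63.0 and 1.58 CPM in K/B.g7 and 0.255, 20.1 and 3.02 CPM in B.g7. The interferon-gamma list had a median of -0.33 over 13 genes and the type I interferon list -0.08 over 13, with 0 calls in each. The interferon regulators Irf8 and Irf1 had log2 fold changes of -0.69 ± 0.22 and -0.86 ± 0.35 SE, with edgeR adjusted p of 0.63 and 0.76. The Wnt list had a median of -0.34 over 15 genes, and Nkd1, a feedback inhibitor of Wnt signalling, was lower in every K/B.g7 library, at 16.1, 4.75 and 5.31 CPM in K/B.g7 and 18.3, 20.4 and 19.96 CPM in B.g7 (log2 fold change -1.43 ± 0.36 SE, edgeR adjusted p = 0.37). Hsd11b1 was higher at each age and did not pass (log2 fold change 1.08 ± 0.26 SE, edgeR adjusted p = 0.37). Runx2, the osteoblast regulator, had a log2 fold change of 1.2 ± 0.37 SE (edgeR adjusted p = 0.6). The heat shock gene Hspa1a, which can mark stress of dissociation, was at 3166, 4531 and 2869 CPM in K/B.g7 and 3463, 8419 and 4271 CPM in B.g7 (log2 fold change -0.59 ± 0.26 SE, edgeR adjusted p = 0.77).

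At each age alone, where 1 library stood against 1 and no test was possible, Tagln and Acta2 were among the 5 largest excesses of K/B.g7 at 3 and at 25 weeks but not at 8 weeks. A 2-fold or larger difference was seen at 3 weeks for 30 genes higher in K/B.g7 (1%) and 8 lower (0.268%) of 2986 with at least 50 CPM and 20 UMIs in the higher library. At 8 weeks it was 83 higher (2.87%) and 58 lower (2%) of 2894, and at 25 weeks 75 higher (2.49%) and 62 lower (2.05%) of 3018. The largest excess in K/B.g7 at 3 weeks was that of Acta2, 6.0 times (4.97 to 7.30, exact 95% interval of the 2 counts), then Tagln, Nme2, Rrad and Gstp1, the last at 3.46 times (2.59 to 4.68). At 8 weeks the acute phase gene Hp (haptoglobin) had 511 UMIs against 1 (121 and 0.755 CPM, a ratio of 161 with an interval of 28.7 to 6364), followed by the complement gene C7 (117 and 8.31 CPM), Ifi205, Arhgap24 and Hs3st1. At 25 weeks Hp was on the other side, at 3.68 CPM in K/B.g7 and 80.1 CPM in B.g7, and Myh11, Tagln, Hmcn2, Calcrl and Acta2 led the excess in K/B.g7. Lower in K/B.g7 at 25 weeks were Cxcl13, with 1 UMI against 328, the estrogen sulfotransferase Sult1e1, with 23 against 831 (71.6 times, interval 47.4 to 114), Hp, the epicardial and mesothelial regulator Wt1 (3.13 and 50.4 CPM) and Cxcl10 (5.04 and 61.2 CPM). Lower at 8 weeks were Smad6, Sfrp2, Id1, Cox4i2 and Enpp6, by 29.1 to 5.14 times, and lower at 3 weeks AY036118, Ifi27l2a, Paxbp1, Kcnk2 and Pin4, by 3.27 to 2.10 times. All these intervals cover counting error alone. At 8 weeks the B.g7 library was the one with Xist and no Y-linked UMI in 94.0% of members. What sex adds to the ratios of that age was not tested.

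Whether the genotype difference in members was the one seen in the other cells of the gate was tested as an interaction. The rule's upper limits decided which cells were members and which were the reference. They left cells rich in Mmp3, Lcn2 or Igfbp3 among the other cells. At 8 weeks the other cells had 1261 CPM of Mmp3 and 643 CPM of Lcn2 in K/B.g7, against 66.3 and 17.5 CPM in B.g7. Igfbp3 was at 97.5 CPM there in K/B.g7 and 1258 CPM in B.g7. What this choice adds to the interaction was not tested. Of 12775 genes, 10 had a more positive K/B.g7 difference in members (0.0783%) and 13 a more negative one (0.102%), at an edgeR adjusted p under 0.05 with the library as a block. Tagln was 1 of the 10: its K/B.g7 difference was larger in members by 1.13 ± 0.12 SE on the log2 scale (edgeR adjusted p = 4.3e-04). In the other cells Tagln was at 402, 86.6 and 284 CPM in K/B.g7 and 187, 61.3 and 145 CPM in B.g7, above the members in each library. Cav1, the coat protein of caveolae, was the other of at least 20 CPM, at 33.8, 24 and 36.3 CPM in K/B.g7 and 9.92, 9.82 and 24 CPM in B.g7 in members and 34.4, 24.1 and 40.9 CPM in K/B.g7 and 20.1, 21.8 and 52.3 CPM in B.g7 in the other cells (difference 0.96 ± 0.16 SE, edgeR adjusted p = 0.022). Gstp1, Jag1, Acta2, Myh11 and Ccl21a were not among the calls of this test. In the other cells too, Gstp1, Jag1, Acta2 and Myh11 were higher in K/B.g7 at each age. Ccl21a there was at 1.12, 19.5 and 23.6 CPM in K/B.g7 and 7.41, 1.54 and 6.10 CPM in B.g7. Of 6 mesothelial markers tested, 4 were among the 10, each at 16.1 CPM or less in K/B.g7 members and 27.0 CPM or less in B.g7 members. The summed list stood at 289 CPM in the other cells of B.g7 at 25 weeks and at 96.3 CPM in its members.

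On the negative side, Cd74, the invariant chain of MHC class II, was at 0.412, 62.5 and 20.3 CPM in K/B.g7 and 0, 29.4 and 65.3 CPM in B.g7 in members and 19.5, 279.6 and 25.8 CPM in K/B.g7 and 1.41, 24.1 and 27.8 CPM in B.g7 in the other cells (difference -1.92 ± 0.20 SE, edgeR adjusted p = 3.8e-04). The other cells of K/B.g7 at 8 weeks were far above every other value, and members of that library were below those of B.g7 at 25 weeks. Sfrp2, a secreted Wnt antagonist, was at 90.7, 31.6 and 51.3 CPM in K/B.g7 and 51.7, 202 and 72.6 CPM in B.g7 in members and 277, 56.5 and 98.6 CPM in K/B.g7 and 86.5, 194 and 95 CPM in B.g7 in the others (difference -0.78 ± 0.11 SE). Fst (follistatin, an activin inhibitor) and Has1 (a hyaluronan synthase) had differences of -0.87 ± 0.13 and -1.22 ± 0.22 SE, Smad6 -1.33 ± 0.22 SE and Hp -2.13 ± 0.32 SE, all with edgeR adjusted p of at most 0.029. Leaving out 3, 8 or 25 weeks gave 81, 40 and 10 calls. Against the Pi16 cells alone there were 24 calls and against the Wif1 cells alone 0, so the interaction depended on the cells taken as reference.

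The comparison of ages held more calls than that of genotypes. Between 25 and 3 weeks, with genotype in the fit, 178 of 10722 genes were higher (1.66%) and 54 lower (0.504%) at an edgeR adjusted p under 0.05. Among the largest changes, matrix genes such as Sparc, Eln and Col3a1 fell, and Cxcl14, Hsd11b1, Tnfaip2 and genes of the Ifi200 family rose. These genes went the same way in the other cells of the gate in both genotypes. From 3 to 25 weeks, Sparc there went from 13993 to 3013 CPM in K/B.g7 and from 11292 to 3918 CPM in B.g7. Cxcl14 went from 19.8 to 213 CPM and from 25.4 to 117 CPM. Whether age changes differed between members and other cells was not tested. Each age had 2 libraries, and leaving out 1 of the 6 at a time gave 55 to 843 calls: 55 without K/B.g7 at 25 weeks, 85 without K/B.g7 at 3 weeks, 431 without K/B.g7 at 8 weeks, 843 without B.g7 at 3 weeks, 458 without B.g7 at 8 weeks and 341 without B.g7 at 25 weeks.

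Sparc, the matricellular protein osteonectin, was at 14351, 1860.0 and 2597 CPM in K/B.g7 and 12082, 1658 and 3505 CPM in B.g7, high in both libraries of 3 weeks (log2 fold change -2.08 ± 0.33 SE, edgeR adjusted p = 0.0068). Eln (elastin) was at 1719, 71.5 and 251 CPM in K/B.g7 and 859.9, 119 and 194 CPM in B.g7 (log2 fold change -2.48 ± 0.38 SE, edgeR adjusted p = 0.0053), and Col3a1 (collagen III) at 11304, 1948 and 2938 CPM in K/B.g7 and 10431, 2155 and 3417 CPM in B.g7 (log2 fold change -1.74 ± 0.31 SE, edgeR adjusted p = 0.013). In each of these genes both libraries of 3 weeks lay above all 4 later ones, and 25 weeks lay between 8 and 3 weeks in both genotypes. Mfap4 and Mfap2, of elastic microfibrils, had log2 fold changes of -1.7 ± 0.31 and -1.83 ± 0.31 SE. Of 22 fibrous matrix genes tested beside those the rule uses, 4 fell and 0 rose, with a median log2 change of -0.57, against 0.01 over all genes. Sparc was the 1 call of 20 basement membrane genes. The 4 fibrous matrix genes were Eln, Col3a1, Mfap4 and Col14a1, the last at 486, 171 and 163 CPM in K/B.g7 and 492, 239 and 269.7 CPM in B.g7 (log2 fold change -1.19 ± 0.27 SE, edgeR adjusted p = 0.039).

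Among genes of at least 20 CPM on average, the largest falls were those of Cpz, a carboxypeptidase that binds Wnt proteins, at 153, 4.75 and 5.72 CPM in K/B.g7 and 85.6, 18.1 and 16.5 CPM in B.g7 (log2 fold change -3.63 ± 0.52 SE, edgeR adjusted p = 0.0037), and Stmn1, a microtubule regulator of dividing cells, at 101, 9.74 and 8.03 CPM in K/B.g7 and 79.9, 14.3 and 26.2 CPM in B.g7 (log2 fold change -2.58 ± 0.40 SE, edgeR adjusted p = 0.0057). C1qtnf6, Hacd1, Ppic, Vstm4 and Rbp4 also fell, with log2 changes between -2.24 and -1.62. Of 14 proliferation genes, 3 fell (Stmn1, Tyms and Cenpf) and 0 rose, and the median was -1.37. Of 9 imprinted growth genes 1 fell, Mest, at 49.1, 11.4 and 11.6 CPM in K/B.g7 and 39.2, 8.31 and 18.3 CPM in B.g7 (log2 fold change -1.57 ± 0.29 SE, edgeR adjusted p = 0.018), 0 of the 9 had a change above 0, and the median was -0.70. Apod fell too, from 499 and 311 CPM at 3 weeks to 145 and 139 CPM at 25 weeks (log2 fold change -1.48 ± 0.31 SE, edgeR adjusted p = 0.03), and was the 1 call among 25 lipid handling genes. The share of members with an Apod UMI did not fall. It was 12.1% and 13.7% at 3 weeks and 15.3% and 17.3% at 25 weeks, uncorrected for depth. At 3 weeks the 1% of members with the most Apod held 54.4% and 65.4% of its UMIs.

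Among the genes that rose, Cxcl14 went from 134 and 89.3 CPM in K/B.g7 and B.g7 at 3 weeks to 743 and 470 CPM at 25 weeks (log2 fold change 2.49 ± 0.40 SE, edgeR adjusted p = 0.0078), and its highest value was that of K/B.g7 at 8 weeks. Hsd11b1 rose from 25.6 and 19.3 CPM to 198 and 108 CPM (log2 fold change 2.78 ± 0.34 SE, edgeR adjusted p = 0.0022). Both are among the 24 genes described above for their excess in members. Tnfaip2, a gene induced by tumor necrosis factor, was at 10.7, 104 and 112 CPM in K/B.g7 and 24, 106 and 134 CPM in B.g7 (log2 fold change 2.92 ± 0.29 SE, edgeR adjusted p = 0.0012). Inmt, a methyltransferase, was at 12, 167 and 119 CPM in K/B.g7 and 18.8, 75.5 and 163 CPM in B.g7, and Efemp1 (fibulin 3) at 23.5, 194 and 111 CPM in K/B.g7 and 28.7, 209.9 and 117 CPM in B.g7, with log2 fold changes of 3.26 ± 0.38 and 2.17 ± 0.25 SE. Ces1d, a lipid-cleaving carboxylesterase, and Slco2b1, an anion transporter, rose by 2.57 and 2.47 on the log2 scale, and Polr2l and Smim27 by 2.24 and 2.12. In the cells with Xist and no Y-linked UMI, Inmt and Efemp1 had log2 fold changes of 0.48 and 0.61 and did not pass (edgeR adjusted p = 0.66 and 0.31).

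Ifi205 and Ifi211, of the interferon-inducible Ifi200 family, rose with age. Ifi205 was at 11.1, 401 and 236 CPM in K/B.g7 and 20.4, 43.8 and 144 CPM in B.g7 (log2 fold change 3.55 ± 0.62 SE, edgeR adjusted p = 0.013), and Ifi211 at 9.49, 139 and 116 CPM in K/B.g7 and 17.2, 38.5 and 68.5 CPM in B.g7 (log2 fold change 2.77 ± 0.43 SE, edgeR adjusted p = 0.0057). The type I interferon list had 1 call of 13, Oasl2, at 4.54, 27.3 and 19.7 CPM in K/B.g7 and 11, 31 and 18.1 CPM in B.g7 (log2 fold change 1.41 ± 0.33 SE, edgeR adjusted p = 0.045), and a median of 0.34. The MHC class I list had 1 of 14, H2-T23, at 32.6, 183 and 72.8 CPM in K/B.g7 and 30.8, 211 and 72 CPM in B.g7 (log2 fold change 1.22 ± 0.25 SE, edgeR adjusted p = 0.024). Of 4 MHC class II genes, 3 passed: Cd74 at 0.412, 62.5 and 20.3 CPM in K/B.g7 and 0, 29.4 and 65.3 CPM in B.g7, H2-Aa at 0.412, 19 and 6.4 CPM in K/B.g7 and 0, 17.4 and 12.9 CPM in B.g7, and H2-Eb1 at 2.06, 26.1 and 12.8 CPM in K/B.g7 and 2.09, 15.9 and 20.8 CPM in B.g7, with edgeR adjusted p of 0.0037, 0.0068 and 0.0074. With 0 to 5 UMIs per gene in the libraries of 3 weeks, their fold changes depend on the count added in fitting and are not given. Igkc, the antibody light chain gene of B and plasma cells, which was named after its values were seen, was at 0, 50.6 and 8.17 CPM in K/B.g7 and 0, 12.8 and 0.809 CPM in B.g7. It passed the test too, and red cell genes summed to 15.3 and 32.4 CPM at 3 weeks and 414 and 851 CPM at 25 weeks, with 0 calls. The 10 macrophage markers summed to 7.42, 44.0 and 20.3 CPM in K/B.g7 and 5.22, 18.1 and 34.3 CPM in B.g7, lowest at 3 weeks in both genotypes like the class II genes. Of the 2 macrophage markers tested, both had a log2 change above 0 and an unadjusted p under 0.05, and 0 were called. What RNA of other cells adds to the class II genes was not tested.

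Mesothelial genes also rose in the age comparison. Upk3b was at 0, 2.85 and 16.1 CPM in K/B.g7 and 0, 8.31 and 27 CPM in B.g7, Msln at 0, 5.47 and 6.13 CPM in K/B.g7 and 0, 2.27 and 6.2 CPM in B.g7 and Krt19 at 0, 2.38 and 3.27 CPM in K/B.g7 and 0.522, 4.53 and 5.93 CPM in B.g7, and these 3 of 3 tested passed with edgeR adjusted p of 0.0015, 0.014 and 0.034. Without the 0 to 102 members per library that had a UMI of a mesothelial marker, in a fit added after the data were seen, 137 genes were higher and 41 lower. The pericyte gene Rgs5 rose as well (log2 fold change 1.85 ± 0.42 SE, edgeR adjusted p = 0.036). Trac, the constant part of the T cell receptor α chain, went the other way, at 40.01, 4.75 and 0.544 CPM in K/B.g7 and 14.6, 8.31 and 0 CPM in B.g7 (edgeR adjusted p = 0.0015). At 3 weeks Cd3d, Cd3e, Cd3g and Lck were at 0 UMIs in the members of both genotypes, while Trac had 97 and 28 UMIs, of which the source was not tested.

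**Figure D4:**
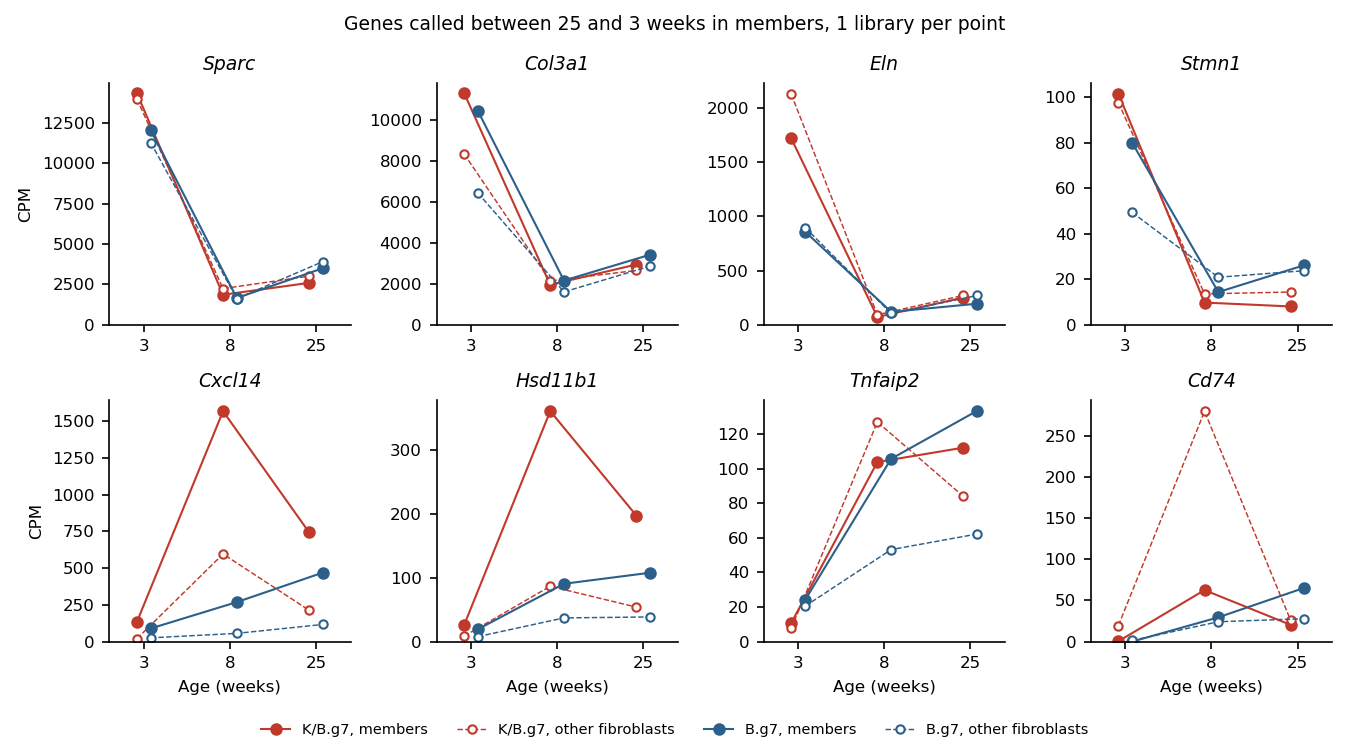
CPM of 8 genes called between 25 and 3 weeks, in members (filled points) and in the other cells of the fibroblast gate (open points), by age and genotype. Sparc, Col3a1, Eln and Stmn1 are highest at 3 weeks in both genotypes, and Cxcl14, Hsd11b1, Tnfaip2 and Cd74 are lowest there.

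Signalling genes changed singly with age. Bmp4, a ligand of the BMP family, was at 45, 137 and 174 CPM in K/B.g7 and 49.6, 95.1 and 93.3 CPM in B.g7 (log2 fold change 1.48 ± 0.26 SE, edgeR adjusted p = 0.014) and was the 1 call of 24 in its list. Tcf7l2, a transcription factor of Wnt signalling, was at 39.2, 80.6 and 138 CPM in K/B.g7 and 35, 81.5 and 54.8 CPM in B.g7 (log2 fold change 1.34 ± 0.31 SE, edgeR adjusted p = 0.041), 1 of 15. Igfbp6, an IGF binding protein and also a gene of the Pi16 cells, was at 172, 501 and 438 CPM in K/B.g7 and 181, 286 and 397 CPM in B.g7 (log2 fold change 1.28 ± 0.27 SE, edgeR adjusted p = 0.028), and in the Xist cells without Y-linked UMIs its log2 change was -0.27. Runx2, at 2.47, 16.4 and 19.3 CPM in K/B.g7 and 2.61, 3.02 and 8.63 CPM in B.g7, rose (log2 fold change 2.48 ± 0.50 SE, edgeR adjusted p = 0.024) and was the 1 call of 11 cartilage and bone genes. Of 17 glucocorticoid and clock genes 3 rose: the clock repressor Nr1d1, at 40.4, 155 and 152 CPM in K/B.g7 and 43.9, 172 and 87.9 CPM in B.g7 (log2 fold change 1.53 ± 0.28 SE, edgeR adjusted p = 0.015), and the metallothioneins Mt1 and Mt2, with log2 fold changes of 1.71 ± 0.36 and 1.7 ± 0.37 SE. Ebf1, an early adipogenic regulator, and the complement gene C3 did not pass (log2 fold change 1.07 ± 0.28 SE, edgeR adjusted p = 0.069, and log2 fold change 1.77 ± 0.44 SE, edgeR adjusted p = 0.055). Abca8a had a log2 change of 0.68 ± 0.28 SE (edgeR adjusted p = 0.25).

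**Figure D5:**
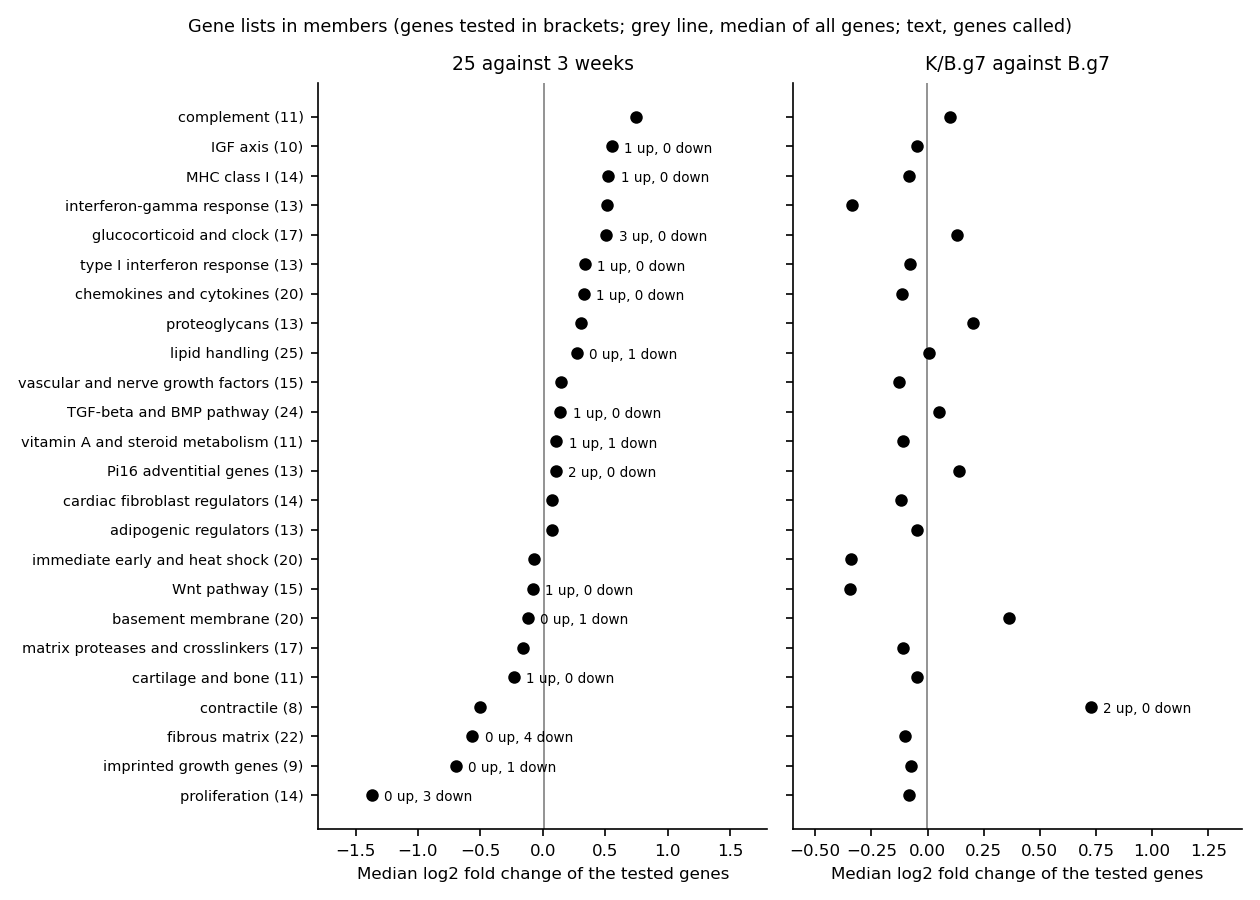
Median log2 fold change of the tested genes of each pathway list in members, for 25 against 3 weeks (left) and K/B.g7 against B.g7 (right), with the number of genes tested in brackets and of genes called beside the point. The proliferation list is lowest with age, at -1.37 and 3 genes down, and of the pathway lists drawn the contractile one is highest by genotype, at 0.73 and 2 genes up. Marker lists of other cell types, such as the mural one at 1.28 by genotype, are not drawn. MHC class II, with 0 to 5 UMIs per gene at 3 weeks, is not drawn.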

How the data were processed

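UMI counts per gene and barcode were deposited as 1 matrix per library, made by the authors with Cell Ranger 3.1.0 on mm10, per the submitters' processing notes. The annotation they used is not given in the sources used here. Those matrices were used as counts. Members were summed per library with pandas 2.3.3 and scipy 1.17.1 (Python 3.11.15), and the sums were tested with edgeR 4.0.16 in R 4.3.3 (quasi-likelihood F test, TMM factors, filterByExpr) on genotype and age, with 2 residual degrees of freedom, 10734 genes and a false discovery rate of 0.05 after Benjamini-Hochberg adjustment. The 12 genes of the rule among them were left out of the calls, which leaves 10722. The difference between members and other gate cells was fitted over 12 sums with the library as a block. Age blocked the genotypes because the labels give each pair of libraries the same age: deviations of the pair correlated at 0.456, 0.354 and 0.116 for 3, 8 and 25 weeks, and the block is a shared age, not a shared animal. Shares were compared by exact permutation. The fitting was tested on simulated data.

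The members and the gene lists were chosen with earlier results of these data known. Named genes were, in either direction, up to 12 past the threshold by size with the same sign at all ages (in both genotypes for age) and a mean of at least 20 CPM, filled to 8 by smallest p for genotype. Up to 6 were named for the interaction, where the limit was read as the members' mean after the genes under both readings were seen, up to 4 per list and fit by p, 24 above and 12 below the other cells at 50 CPM or more, and 5 per age. Genes the rule uses and mitochondrial, ribosomal, hemoglobin, immunoglobulin, sex-linked, Gm and Rik genes were not named by it, and some genes under these rules are not reported here. Positions are GENCODE M21 (mm10), promoters RefSeq on GRCm38.p6. The motifs and the 100-base window were chosen after matches were seen. The RefSeq windows of Acta2 and, in part, of Gstp1 lie within the longer gene models of GENCODE.

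Alternatives were DESeq2 1.42.0, RLE factors, no filter on low counts, thresholds of 3 and 6 UMIs, all 3 genes detected, thinning to 2000 UMIs, no predicted doublets, Xist cells only, no block, other reference cells and leaving out libraries. Doublets were kept: the automatic threshold of Scrublet, run through scanpy 1.11.5, did not work, and the alternative removes the highest scores at 0.8% per 1000 barcodes, which took 2.01% to 12.9% of members.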

Additional observations from a re-analysis of the deposited data

Results flagged for a closer look

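For 8 named genes, of the 23 called, the K/B.g7 difference in members differed from that in the other cells of the fibroblast gate by the edgeR interaction test. On the log2 scale, members minus others, it was 1.13 for Tagln and 0.96 for Cav1. It was -2.13 for Hp, -1.92 for Cd74, -1.33 for Smad6, -1.22 for Has1, -0.87 for Fst and -0.78 for Sfrp2. Hp and Cd74 had 0 or 1 UMI in the members of both libraries of 3 weeks, so the sizes of their values depend on the count added in fitting. The rule also set which cells were members and which the reference, and its part in these values was not tested.

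The share of members was lower in K/B.g7 at 3 weeks and higher at the later ages. K/B.g7 minus B.g7 was -6.47 percentage points at 3 weeks, 9.14 at 8 weeks and 7.25 at 25 weeks. Without the upper limits of the rule, K/B.g7 was also lower at 25 weeks, at 52.2% against 56.5% of gate cells. With 1 library per genotype and age, the difference between ages was not tested.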

How the results depend on the processing

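The 6 genotype calls were 132 without a filter on low counts (76 higher and 56 lower). In Xist cells without Y-linked UMIs they were 14 (10 higher and 4 lower), and after thinning 10 (8 higher and 2 lower). They were 0 with edgeR and no replicate block (317 genes at unadjusted p under 0.05) and 2 without the top 1% of members in contractile genes. They were 2 to 223 with 1 age left out, and 4 to 9 under DESeq2 and the other settings. Without members with pericyte UMIs, 5 were higher and 1 lower. Among the 6 genes, Tagln and Gstp1 lost the call only without the block. Jag1 lost it in Xist cells (edgeR adjusted p = 0.085), and Jag1, Acta2, Myh11 and Ccl21a did not pass without 25 weeks, nor without the top 1% in contractile genes or without the block. Acta2 and Ccl21a lost it without predicted doublets, Acta2 also without members with pericyte UMIs, and Ccl21a also at thresholds of 3 and of 6 UMIs, with all 3 genes detected and in Xist cells. In some settings Myh11 did not pass the filter on low counts and had no value. It kept the call in 9 settings and lost it in 3, while Tagln kept it in 14 and lost it in 1. None of the 6 reversed where tested. The 232 age calls were 740 without a filter and 55 to 843 with 1 library left out. Of 45 age genes named as called, 44 kept their direction, and Igfbp6 was at -0.27 in the Xist cells. The 23 interaction calls were 3 with DESeq2, 159 without a filter, 0 with edgeR against the Wif1 cells (703 genes at unadjusted p under 0.05), 0 with edgeR and no replicate block (133 genes), and 10 to 81 with 1 age left out. The difference of the mean shares kept its direction in every setting run, at exact permutation p from 0.33 to 1. The p of 0.33 came from 2 against 2 libraries, where it is the smallest possible. Single ages did not all keep theirs. Without the upper limits, K/B.g7 was lower at 25 weeks too, at 52.2% against 56.5%, and higher at 8 weeks only. With the replicate block, paired by age, the mean difference was 3.31 points (exact permutation p = 0.5, smallest possible 0.25). The cause of these changes was not tested. With 1 library per genotype and age, 2 residual degrees of freedom and members summing to as few as 1324495 UMIs, a gene without a call is not shown to be unchanged.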

Other observations

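Members with different pairs of the 3 selecting genes differed in other genes. Those with Smoc2 and Lpl but no Col15a1 UMI had a median over the 6 libraries of 938 CPM of Dpep1, against 560 CPM in those with Smoc2 and Col15a1 only and 585 CPM in those with Lpl and Col15a1 only. For G0s2 the medians were 581, 306 and 378 CPM, and for Cxcl14 435, 158 and 220 CPM. The order of Dpep1 between the first group and the other two held in 6 of 6 libraries. In both libraries of 3 weeks Cxcl14 was lower with Smoc2 and Lpl only (35.2 and 36.3 CPM) than with Lpl and Col15a1 only (71.3 and 78.4 CPM), and in B.g7 at 8 weeks G0s2 was at 559 and 592 CPM in these groups. Members with all 3 genes had medians of 824, 682 and 465 CPM of Dpep1, G0s2 and Cxcl14, and the highest Col4a1 of the groups, at 652 CPM. Apoe stood highest in members with Lpl and Col15a1 only, at a median of 14866 CPM. The groups were made from counts of the same cells, so these values are given without a test.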
